A study of Homo sapiens with 8 samples.

Results

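MDA-MB-231, an invasive human breast cancer line that lacks hormone receptors, was compared between 3-dimensional collagen I gels and monolayers on plastic, in cells that had received a control guide RNA. The comparison took the 4 libraries labelled as control cells, 2 from gels and 2 from monolayers, out of 8 in the study, and ran over all genes of the deposited count table. The other 4 libraries, 2 gels and 2 monolayers of cells in which Cas9 was directed at the transcription factor genes ETV1, ETV4 and ETV5, shared the estimate of spread and were used to ask whether the change between cultures differed in those cells. All cells grew in DMEM/F12 medium with 10% serum, and guides were brought in by nucleofection. Cas9 is named beside the control guide in the label of the gels but not in that of the monolayers, so an effect of Cas9 cannot be told apart from that of culture if the monolayers received none.

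Per the labels, gels held 100000 cells per ml in collagen I at a concentration of either 1.2 mg/ml or 2.4 mg/ml, not assigned to samples, and were set as 80 µl droplets for 30 min. At harvest the gels were digested with collagenase I at 300 U/ml and 37 °C for 10 min and then 5 min, pipetted, washed and frozen as cell pellets, whereas monolayers were lysed on the plate. Culture and harvest therefore cannot be told apart in any value given here. No label used here gives the days in culture or says that libraries of the same group were grown separately, so a p-value reflects the spread between these libraries and that spread may be technical. In bulk RNA of this kind, fewer cells of a type and less RNA per cell cannot be told apart.

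As background, a collagen I gel surrounds cells with the main fibrillar protein of connective tissue, which they bind through integrins and discoidin domain receptors and cut with membrane-bound and secreted proteases. Immediate-early genes such as FOS, EGR1 and NR4A1 are transcribed within minutes of a stimulus from factors already present in the cell, and their RNAs are short-lived. They answer to growth factors, to mechanical stretch and also to the enzymes and warmth used to free cells from a matrix, which is why they are read in many studies as a mark of dissociation.

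Of 61228 genes in the table, 15568 had enough counts to be tested, and 4158 of these, 26.7%, passed an adjusted p of 0.05 with edgeR's quasi-likelihood test. In gels 2486 genes were higher (16.0%) and 1672 lower (10.7%). Most of these differences were small: the median absolute log2 fold change of the called genes was 0.31, and 3337 of them (80.3%) differed by less than 1.5-fold. A test against 1.5-fold called 113 genes (0.726%), 59 higher (0.379%) and 54 lower (0.347%). Values that do not overlap between cultures do not by themselves mark a call: those of IER3, DUSP4, PLAU and ITGB1 did not overlap, and none was called. The share of all tested genes without overlap is not given here. The number called fell to 2359 without monolayer library 1, 2144 without gel library 1 and 2667 without gel library 2, and DESeq2 called 2431. The share of called genes that were higher, 59.8% (2486 higher, 1672 lower), was 43.4% with upper-quartile factors (1699 higher, 2213 lower) and 30.6% with library size alone (1239 higher, 2804 lower).

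**Figure D1:**
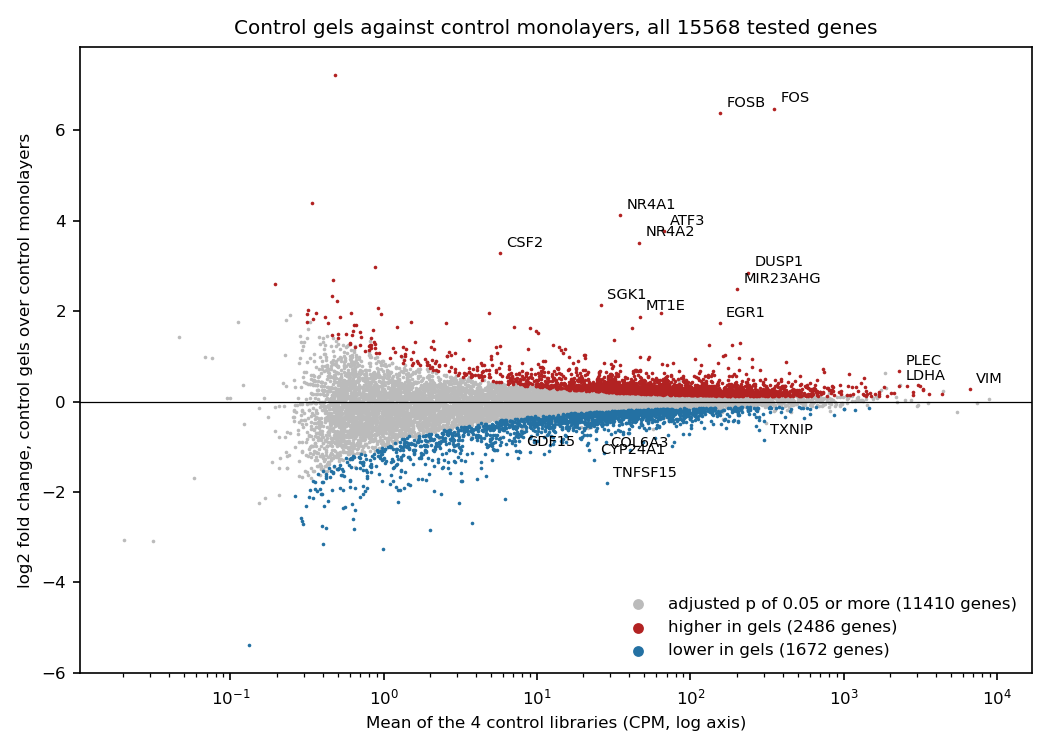
Each point is a tested gene, with its mean level over the 4 control libraries on the log x axis (CPM, counts scaled to library size) and its log2 fold change in gels over monolayers on the y axis; red and blue points passed an adjusted p of 0.05. FOS and FOSB stand near 6.4 on the y axis, while most called genes lie within 1 log2 unit of 0.

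The 4 control libraries held between 15824504 and 23896899 counts, and mitochondrially encoded genes took 3.15 to 4.26% of them. The line's own markers were present: VIM, the mesenchymal intermediate filament, stood at 5697 and 6308 CPM in monolayers and 7407 and 7149 CPM in gels, and CDKN2A, which is deleted in this line, had no count in any of the 4. Of 15 luminal breast markers, ESR1, PGR and CDH1 stood at 0.282 CPM or less, while others were expressed, KRT8 at 387 to 484 CPM and KRT18 at 288 to 315 CPM among them. The luminal list summed to 890 to 968 CPM in monolayers and 1028 to 1051 CPM in gels. Of 14 leukocyte markers 4 had no count, CD3E, MS4A1 and TYROBP among them, and the list summed to 10.1 to 10.5 CPM in monolayers and 9.84 to 12.2 CPM in gels. LYZ, at 3.70 and 3.66 CPM in monolayers and 5.86 and 6.20 CPM in gels, was called higher, a call lost with DESeq2. CSF1R, at 3.42 and 3.85 against 2.54 and 3.57 CPM, did not pass. Of 14 fibroblast markers 7 had no count, DCN and FAP among them, and the sum was 19.0 to 19.1 CPM in monolayers and 13.6 to 13.8 CPM in gels. The 2 tested members were both called lower, calls lost with DESeq2. COL1A1 was at 13.1 and 12.7 CPM in monolayers and 9.56 and 9.88 CPM in gels, and PDGFRB at 5.35 and 5.77 against 3.70 and 3.62 CPM. Of 13 endothelial markers CLDN5, ERG and EMCN had no count, and the sum, mostly ESAM and ROBO4, was 230 to 244 CPM in monolayers and 279 to 294 CPM in gels. What part these markers have in the results was not tested.

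The targeted PEA3 factors of the ETS family, unedited in these cells, differed little between cultures. ETV4 was at 81.3 and 89.2 CPM in monolayers and 96.8 and 96.6 CPM in gels, a log2 fold change of 0.19 ± 0.059 (SE) with an adjusted p of 0.0162. That call was lost in 7 of the alternatives, including DESeq2 and the fits without monolayer library 1 or either gel library. ETV1, at 200 and 205 CPM in monolayers and 222 and 217 CPM in gels, did not pass (log2 fold change 0.12, 95% interval 0.01 to 0.22, adjusted p = 0.0843). ETV5 overlapped between cultures, with 112 and 118 CPM in monolayers and 119 and 110 CPM in gels (95% interval of the log2 fold change -0.11 to 0.11).

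The immediate-early and dissociation response genes rose together in gels. Of 30 tested members, 24 were called higher (80.0%, against 16.0% of all tested genes) and none lower. The median log2 fold change was 0.69, against 0.01 over all tested genes. Of the list's members, 12 passed the test against 1.5-fold, which 0.726% of all tested genes passed. The list held 9 of the 12 largest called rises among genes with a symbol, a mean of 5 CPM or more and no overlap between cultures. Its members were chosen with earlier results of these data known, so these counts describe the list and are not independent support. The called genes outside this list numbered 4134. Its count stayed between 21 and 24 higher in the 4 fits that each left out 1 control library, with none lower.

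FOS, a subunit of the AP-1 transcription factor, was at 7.85 and 7.69 CPM in the monolayers and 687 and 707 CPM in the gels. Its gel libraries lay 89.4-fold above the monolayers in the fit (log2 fold change 6.48 ± 0.066, adjusted p = 1.81e-39), with raw counts of 195 and 124 against 14304 and 12877. FOSB, its close relative, went from 3.86 and 3.41 CPM to 287 and 329 CPM (log2 fold change 6.38 ± 0.32, adjusted p = 0.000313). Both genes had gel values far outside the narrow range of the monolayer pair.

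The orphan nuclear receptors of the NR4A family followed. NR4A1 was at 3.86 and 3.66 CPM in monolayers and 63.1 and 69.4 CPM in gels (log2 fold change 4.13, adjusted p = 0.000593). NR4A2 stood at 7.49 and 7.32 CPM against 77.4 and 93.2 CPM (3.52, adjusted p = 0.000731). The third member, NR4A3, stayed under 1 CPM in all 4 libraries and did not pass.

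ATF3, a stress-induced factor that pairs with AP-1 proteins, was at 9.30 and 8.93 CPM in monolayers and 119 and 131 CPM in gels (log2 fold change 3.77 ± 0.098, adjusted p = 3.77e-17). DUSP1, the phosphatase that switches off MAP kinases, went from 55.3 and 61.4 CPM to 410 and 429 CPM (2.85 ± 0.054, adjusted p = 1.29e-30). EGR1, a zinc-finger factor downstream of ERK, went from 69.8 and 73.6 CPM to 234 and 244 CPM (1.74 ± 0.056, adjusted p = 1.44e-22). In each of the 3 genes the gel values lay well above the monolayer values. ZFP36, which destabilises the RNAs of cytokines and of immediate-early genes, rose from 27.2 and 25.1 to 102 and 103 CPM (1.96), and SGK1, a serum-induced kinase, from 10.6 and 8.50 to 41.8 and 43.5 CPM (2.13).

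Lower down the list the rises were modest. PPP1R15A, which directs the dephosphorylation of eIF2-alpha, went from 123 and 122 to 298 and 302 CPM (log2 fold change 1.29), and KLF4, a zinc-finger factor, from 73.6 and 82.5 to 182 and 189 CPM (1.26). MCL1, a short-lived survival protein of the BCL2 family, changed by 0.65 on the log2 scale and JUNB, an AP-1 subunit, by 0.80. JUN, JUND, KLF6 and IER2 were called at 0.26 to 0.49. IER3 at 409 and 407 against 439 and 440 CPM did not pass (adjusted p = 0.0654), nor did ZFP36L1 (adjusted p = 0.142), MYC, SOCS3, EGR2 or NR4A3.

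**Figure D2:**
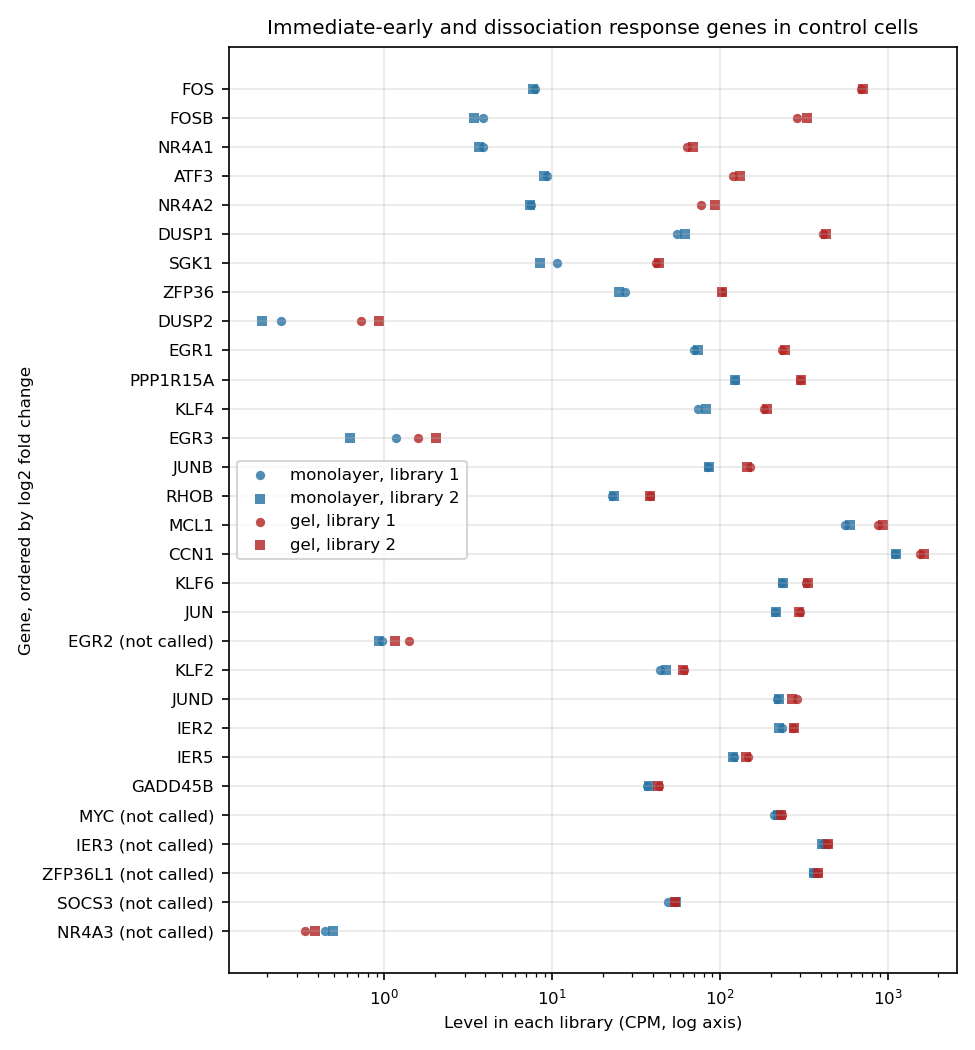
The x axis, on a log scale, gives the level in CPM in each of the 4 control libraries for the 30 tested genes of the list, ordered by log2 fold change; blue points are monolayers and red points gels. The 2 libraries of each culture sit close together in most rows, and FOS moves from about 8 CPM to about 700 CPM while IER3 and ZFP36L1 barely move.

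Promoter sequences of 4 of these genes are shown because FOS, FOSB, EGR1 and DUSP1 rose in the same libraries and all carry letters of the cyclic AMP response element close to the start site. Each window runs from 250 bases before to 50 bases after the start in RefSeq on GRCh38.p14, at chr14:75278578-75278877 (plus strand) for FOS, chr19:45467746-45468045 (plus) for FOSB, chr5:138465229-138465528 (plus) for EGR1 and chr5:172771146-172771445 (minus) for DUSP1. Capitals mark the core TGACG on either strand, and in EGR1 also the CArG box, the site bound by serum response factor.
FOS: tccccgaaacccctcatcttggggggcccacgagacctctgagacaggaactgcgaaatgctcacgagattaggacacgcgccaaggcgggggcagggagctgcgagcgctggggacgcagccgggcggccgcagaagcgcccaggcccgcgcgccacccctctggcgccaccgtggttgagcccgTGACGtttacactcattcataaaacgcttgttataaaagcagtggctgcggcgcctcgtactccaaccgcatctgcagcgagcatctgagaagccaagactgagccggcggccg
FOSB: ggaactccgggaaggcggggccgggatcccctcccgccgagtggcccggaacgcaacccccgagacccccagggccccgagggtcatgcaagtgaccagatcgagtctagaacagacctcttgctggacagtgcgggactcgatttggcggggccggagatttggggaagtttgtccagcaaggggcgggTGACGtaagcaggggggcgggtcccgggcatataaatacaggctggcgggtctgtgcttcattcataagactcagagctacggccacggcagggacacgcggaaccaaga
EGR1: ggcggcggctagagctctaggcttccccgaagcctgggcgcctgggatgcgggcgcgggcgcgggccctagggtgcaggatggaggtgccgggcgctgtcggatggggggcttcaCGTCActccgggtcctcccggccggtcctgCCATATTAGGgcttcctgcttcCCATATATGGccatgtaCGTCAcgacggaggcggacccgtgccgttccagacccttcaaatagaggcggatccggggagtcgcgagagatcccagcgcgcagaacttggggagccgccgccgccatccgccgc
DUSP1: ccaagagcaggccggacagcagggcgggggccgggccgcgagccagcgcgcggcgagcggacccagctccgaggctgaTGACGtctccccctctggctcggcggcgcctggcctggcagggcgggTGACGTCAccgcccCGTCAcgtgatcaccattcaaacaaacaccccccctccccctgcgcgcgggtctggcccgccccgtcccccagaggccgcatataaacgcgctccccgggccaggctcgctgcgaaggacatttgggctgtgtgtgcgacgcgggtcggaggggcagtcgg
The first base of TGACG lies at -64 in FOS and -60 in FOSB, counted from the start site. Of the 24 members that rose, 20 had a promoter entry, and 11 of these (55%) held the core on either strand, against 25.0% of 27305 promoters of the same length. The CArG box was found in 1 of the 20, EGR1, against 1.29% of all promoters, and the AP-1 site TGANTCA in 0 of 20 against 7.76%. Sites more than 250 bases before the start were not searched, so FOS and the others may hold a CArG box further out. All of these are matches of letters in a short window and say nothing of binding. The list was assembled from known immediate-early and dissociation response genes, so the shares describe the list and not the gels.

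NF-kB targets and cytokines rose in gels, with 17 of 24 tested members higher (70.8%) and 2 lower (8.33%), against 16.0% and 10.7% of all tested genes. The median log2 fold change was 0.38. CSF2, the growth factor GM-CSF, was at 0.926 and 1.24 CPM in monolayers and 10.6 and 10.2 CPM in gels, from raw counts of 23 and 20 against 220 and 185 (log2 fold change 3.29 ± 0.20, adjusted p = 4.43e-15). CXCL8, the neutrophil chemoattractant interleukin 8, went from 9.02 and 7.69 CPM to 20.5 and 18.4 CPM (1.20, adjusted p = 4.37e-10). PTGS2, the inducible cyclooxygenase, went from 9.22 and 9.56 CPM to 20.1 and 22.0 CPM (1.17, adjusted p = 4.03e-10). The gel values of these genes exceeded every monolayer value, though all stayed at modest levels.

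CXCL2, another neutrophil chemokine, was called at a log2 fold change of 1.96 from raw counts of 50 and 31 against 138 and 161. Within the pathway itself, the subunit genes RELB (1.08), NFKB2 (0.33) and NFKB1 (0.17) were higher, as were the feedback inhibitors NFKBIZ (0.99), TNFAIP3 (0.82) and NFKBIA (0.36). IL6 was called higher at 1.21 and 1.24 CPM in monolayers and 2.74 and 2.91 CPM in gels. ICAM1, an adhesion ligand for leukocytes, and CSF1, a macrophage growth factor, were the 2 members called lower, by -0.37 and -0.16. SOD2, at 99.1 and 101 against 104 and 95.2 CPM, overlapped between cultures, and IL11 did not pass (adjusted p = 0.181).

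The promoters of CXCL2 and NFKBIA, a cytokine and a feedback inhibitor that rose together, are given with the NF-kB site in capitals, at chr4:74099146-74099445 and chr14:35404700-35404999, both on the minus strand of GRCh38.p14.
CXCL2: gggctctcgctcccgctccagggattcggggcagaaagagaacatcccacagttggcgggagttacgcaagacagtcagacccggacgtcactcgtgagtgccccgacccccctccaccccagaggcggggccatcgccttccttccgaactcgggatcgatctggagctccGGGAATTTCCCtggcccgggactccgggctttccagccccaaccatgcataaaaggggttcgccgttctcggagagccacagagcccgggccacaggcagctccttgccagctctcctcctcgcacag
NFKBIA: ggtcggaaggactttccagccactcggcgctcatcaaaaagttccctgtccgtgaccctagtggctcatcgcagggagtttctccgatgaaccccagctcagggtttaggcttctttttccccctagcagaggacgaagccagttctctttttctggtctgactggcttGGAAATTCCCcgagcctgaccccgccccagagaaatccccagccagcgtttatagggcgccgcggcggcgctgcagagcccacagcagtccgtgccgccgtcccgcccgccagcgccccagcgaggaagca
Of 14 risen members with a promoter entry, 8 (57.1%) held this site on either strand, against 10.8% of all promoters. The list was assembled from known NF-kB targets, so this share describes the list and not the gels.

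Genes written from ERK signalling were mostly higher: 16 of 27 tested members (59.3%, against 16.0% of all tested genes) were called higher and none lower. The median was 0.19. This list is not separate from the immediate-early list: EGR1, its largest rise at 1.74, and IER3 are members of both. HBEGF, a membrane-bound ligand of the EGF receptor, was at 54.9 and 56.0 CPM in monolayers and 96.6 and 102 CPM in gels (log2 fold change 0.84 ± 0.059, adjusted p = 3.24e-13). SPRY2, a feedback inhibitor of receptor tyrosine kinases, went from 175 and 201 to 312 and 325 CPM (0.77, adjusted p = 2.05e-12). DUSP6, the cytoplasmic ERK phosphatase, went from 350 and 383 to 496 and 496 CPM (0.44). The gel and monolayer values of these 3 genes did not overlap, nor did those of IER3, which was not called. The ligand EREG (0.56), the inhibitor SPRY1 (0.62) and the AP-1 subunit FOSL1 (0.19) were called higher too, while DUSP4, at 948 and 1006 against 927 and 920 CPM, did not pass (adjusted p = 0.18). The number higher was 9 without monolayer library 1, 10 without gel library 1 and 10 with library size alone.

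Zinc and metal response genes gave the next sharp group, with 4 of 6 tested members higher (66.7%) and 1 lower (16.7%). Over all tested genes the shares were 16.0% and 10.7%. Metallothioneins bind zinc and copper in the cytosol, and their genes are switched on through metal response elements. MT1E was at 20.4 and 19.4 CPM in monolayers and 75.3 and 71.4 CPM in gels (log2 fold change 1.88 ± 0.073, adjusted p = 1.23e-20), and MT2A at 296 and 298 against 550 and 536 CPM (0.87, adjusted p = 3.77e-17). SLC30A1, which exports zinc from the cell, went from 20.04 and 20.8 to 64.5 and 61.3 CPM (1.63, adjusted p = 8.76e-18). SLC39A10, a zinc importer, moved the other way, from 98.2 and 104 CPM to 54.9 and 53.9 CPM (-0.89, adjusted p = 1.36e-13). All 4 genes had groups that did not overlap. Neither did those of MTF1, the factor that reads zinc, which did not pass at 23.4 and 24.1 against 28.0 and 26.5 CPM (adjusted p = 0.0632). Metallothionein copies have near-identical sequence, so the split of counts between MT1E, MT1X and MT2A is uncertain.

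The promoters of MT2A, at chr16:56608334-56608633 on the plus strand, and SLC30A1, at chr1:211579112-211579411 on the minus strand of GRCh38.p14, are shown with the metal response element core in capitals, searched as TGCACNC or TGCGCNC on both strands.
MT2A: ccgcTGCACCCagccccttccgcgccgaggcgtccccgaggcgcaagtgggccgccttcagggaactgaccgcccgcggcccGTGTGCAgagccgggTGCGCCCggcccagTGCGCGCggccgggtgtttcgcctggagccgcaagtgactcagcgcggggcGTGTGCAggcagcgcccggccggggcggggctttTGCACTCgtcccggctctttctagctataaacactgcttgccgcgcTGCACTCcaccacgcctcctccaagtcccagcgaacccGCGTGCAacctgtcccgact
SLC30A1: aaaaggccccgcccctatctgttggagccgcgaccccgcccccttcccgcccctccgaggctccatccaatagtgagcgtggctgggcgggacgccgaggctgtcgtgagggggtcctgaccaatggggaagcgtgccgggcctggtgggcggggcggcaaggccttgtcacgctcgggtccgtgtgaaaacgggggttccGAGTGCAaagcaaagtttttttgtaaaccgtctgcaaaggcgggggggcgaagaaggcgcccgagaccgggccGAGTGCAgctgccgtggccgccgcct
The core was found in 3 of the 3 risen genes with a promoter entry, MT1X, MT2A and SLC30A1, and in 29.3% of all promoters. The list was assembled from known zinc and metal response genes, so this share describes the list and not the gels.

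Glycolysis was raised along most of its length, by small amounts. Of 18 tested members, 15 were called higher (83.3%, against 16.0% of all tested genes) and none lower, with a median log2 fold change of 0.32. The split was 11 higher and 1 lower with upper-quartile factors, 10 and 1 with library size alone, and 12 and 1 with length and GC offsets. PGK1, which makes ATP from bisphosphoglycerate, was at 1071 and 1176 CPM in monolayers and 1538 and 1437 CPM in gels (0.41 ± 0.048, adjusted p = 8.44e-08). LDHA, which reduces pyruvate to lactate, went from 1943 and 2104 to 2614 and 2517 CPM (0.34, adjusted p = 1.03e-06). PKM, the pyruvate kinase, went from 2568 and 2736 to 3520 and 3359 CPM (0.38, adjusted p = 1.02e-07). The gel values of the 3 enzymes lay above the monolayer values, at rises of about 1.3-fold. GPI, ALDOA, TPI1, GAPDH, PGAM1 and ENO1 were called at 0.28 to 0.35, and the glucose and lactate transporters SLC2A1 and SLC16A3 at 0.17 and 0.28. PFKP and ENO2 did not pass, and their values overlapped between cultures.

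Promoters of LDHA, at chr11:18394313-18394612, and PGK1, at chrX:78103998-78104297, both on the plus strand of GRCh38.p14, are shown because these genes rose together here and carry the hypoxia response element core ACGTG, marked in capitals on either strand.
LDHA: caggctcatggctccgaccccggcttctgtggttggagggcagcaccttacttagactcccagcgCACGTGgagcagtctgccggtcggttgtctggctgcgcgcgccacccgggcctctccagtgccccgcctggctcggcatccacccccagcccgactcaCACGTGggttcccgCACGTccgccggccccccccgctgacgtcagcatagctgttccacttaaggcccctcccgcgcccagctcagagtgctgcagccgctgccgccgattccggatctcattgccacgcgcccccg
PGK1: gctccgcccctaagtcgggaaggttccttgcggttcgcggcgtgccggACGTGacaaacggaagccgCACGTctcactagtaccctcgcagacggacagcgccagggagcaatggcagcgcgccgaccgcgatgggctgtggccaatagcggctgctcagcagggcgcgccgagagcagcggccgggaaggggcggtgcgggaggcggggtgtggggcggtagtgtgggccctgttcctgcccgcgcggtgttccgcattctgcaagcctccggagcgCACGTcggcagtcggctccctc
Of the 15 risen members, 7 (46.7%) held ACGTG on either strand, against 21.6% of all promoters. The list was assembled as a pathway and most of its members rose, so this share describes the list and not the gels.

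The wider hypoxia response moved in both directions. Of 37 tested members, 12 were higher (32.4%) and 6 lower (16.2%), against 16.0% and 10.7% of all tested genes. The median was 0.10, and with library size alone the split turned to 5 higher and 9 lower. Without monolayer library 1 it was 5 and 5 and without gel library 1 it was 5 higher and 4 lower, while DESeq2 called 7 higher. The number lower was 2 without monolayer library 2 and 3 without gel library 2. BNIP3, a mitophagy receptor, was at 309 and 341 CPM in monolayers and 468 and 454 CPM in gels (0.51 ± 0.049, adjusted p = 9.1e-10). TMEM45A, a membrane protein induced in hypoxia, went from 7.85 and 7.32 to 14.8 and 13.6 CPM (0.90), and KDM4B, a histone demethylase, from 60.9 and 64.5 to 85.5 and 78.7 CPM (0.39). Against these, SLC2A3, a neuronal-type glucose transporter, fell from 31.6 and 35.1 to 22.2 and 25.1 CPM (-0.49), DDIT4, an inhibitor of mTORC1, fell by 0.54 on the log2 scale and VEGFA by 0.13.

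On the oxygen sensing list, which also holds HIF subunits and cofactors, 1 of 10 was higher and 1 lower. Each is 10.0%, against 16.0% and 10.7% of all tested genes. The number lower was 2 with DESeq2-type size factors, a minimum count of 50, the replicate block or the 4 control libraries alone, 3 with upper-quartile factors and 4 with library size alone. CITED2, which competes with HIF-1 for its coactivator, was at 137 and 145 CPM in monolayers and 271 and 275 CPM in gels (0.96 ± 0.049, adjusted p = 3.57e-17), and EPAS1, the HIF-2 alpha subunit, at 55.3 and 59.5 against 42.2 and 38.0 CPM (-0.51, adjusted p = 1.45e-06). HIF1A, at 391 and 403 against 379 and 392 CPM, overlapped between cultures. Nuclear genes of oxidative phosphorylation were little changed, with 5 of 39 higher, none lower and a median of 0.06, and the 5 became 1 without monolayer library 1 or gel library 1, 2 without gel library 2, 2 with DESeq2 or upper-quartile factors, 3 with no filter on low counts and 0 with library size alone. The 5 of 39 are 12.8%, against 16.0% of all tested genes. None of the 13 mitochondrially encoded genes passed.

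Cholesterol synthesis genes were mostly higher: 14 of 25 tested members were called higher (56.0%) and 1 lower (4.0%), with a median of 0.21. Over all tested genes the shares were 16.0% and 10.7%. HMGCS1, which makes HMG-CoA, was at 112 and 109 CPM in monolayers and 161 and 165 CPM in gels (0.56 ± 0.052, adjusted p = 4.12e-10). SQLE, the squalene epoxidase, and IDI1, an isomerase of isoprenoid units, were called at 0.44 and 0.35. In these 3 genes the groups did not overlap. Without monolayer library 1 the number higher was 8. Fatty acid synthesis was mixed, with 5 of 15 higher and 2 lower, among them FADS2 at 0.24 and ACACA at -0.24, a call that was lost without gel library 1. The 5 and the 2 are 33.3% and 13.3%, against 16.0% and 10.7% of all tested genes. SCD overlapped between cultures at 1427 and 1616 against 1591 and 1554 CPM. The 5 higher became 2 without monolayer library 1, without gel library 1, with DESeq2 and with library size alone.

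**Figure D3:**
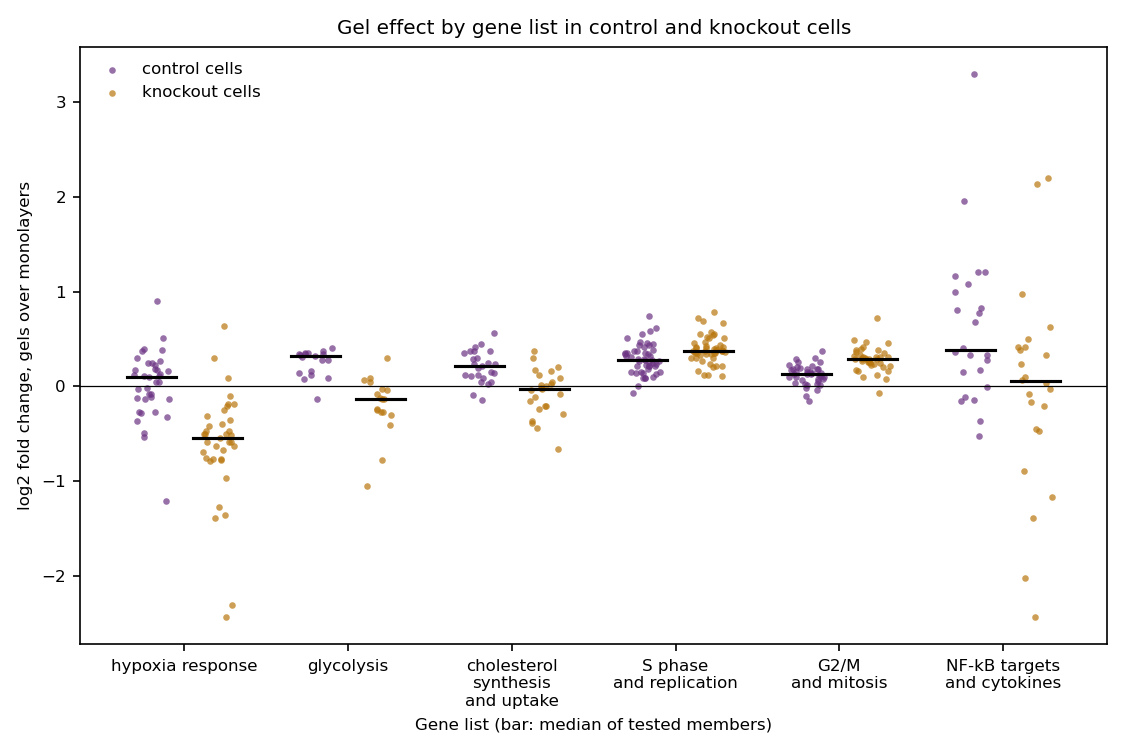
Each point is a tested member of a list, with its log2 fold change of gels over monolayers on the y axis, in control cells (purple) and in ETV1, ETV4 and ETV5 knockout cells (brown); bars are medians. Glycolysis stands at a median of 0.32 in control and -0.13 in knockout cells, while the S phase list stands at 0.28 and 0.38.

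Cell cycle genes that passed the test were mostly higher, by 0.74 on the log2 scale or less. Of 49 tested S phase and replication genes, 37 were called higher (75.5%, against 16.0% of all tested genes) and none lower, with a median of 0.28. RRM2, the regulated subunit of ribonucleotide reductase, was at 180 and 181 CPM in monolayers and 275 and 280 CPM in gels (0.62 ± 0.048, adjusted p = 4.06e-12). CDC6, which loads the replicative helicase, went from 101 and 98.6 to 143 and 141 CPM (0.51, adjusted p = 1.94e-09), and UHRF1, which reads hemimethylated DNA, from 119 and 116 to 155 and 163 CPM (0.43, adjusted p = 4.45e-08). The spread between libraries of a culture was far smaller than these steps. All 6 MCM helicase subunits from MCM2 to MCM7 were called, at 0.23 to 0.38, as were the licensing factors CDT1 (0.47) and ORC1 (0.58) and the transcription factors E2F1 (0.22) and E2F2 (0.74). POLE did not pass (adjusted p = 0.0711).

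The G2/M and mitosis list had 19 of 40 members higher (47.5%, against 16.0% of all tested genes) and none lower, with a median of 0.13. KIF11, the spindle kinesin, was at 154 and 158 CPM in monolayers and 199 and 205 CPM in gels (0.37 ± 0.05, adjusted p = 7.55e-07). FOXM1, the transcription factor of this programme, went from 151 and 153 to 185 and 188 CPM (0.30), and PLK1, the mitotic kinase, from 128 and 135 to 162 and 160 CPM (0.29). TOP2A at 626 and 592 against 649 and 672 CPM did not pass (adjusted p = 0.0547). The count was sensitive: 7 higher without monolayer library 1, 8 without gel library 1, 12 with upper-quartile factors, and 8 with library size alone. Among cyclins and inhibitors of G1, 9 of 17 were higher (52.9%) and 2 lower (11.8%), against 16.0% and 10.7% of all tested genes. CCNE2 was at 0.55, the pocket protein RBL1 at 0.51 and its quiescence-linked relative RBL2 at -0.38. The 9 became 5 without gel library 1 and with library size alone, and 5 were lower with library size alone and with upper-quartile factors. Without monolayer library 2, or with length and GC offsets, 4 were lower, and without gel library 2, 1 was. Replication-dependent histones, whose RNAs mostly lack a poly(A) tail, had 5 of 17 higher, H1-2 from 23.1 and 21.8 to 44.0 and 39.9 CPM (0.90) among them, and 2 without monolayer library 1.

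**Figure D4:**
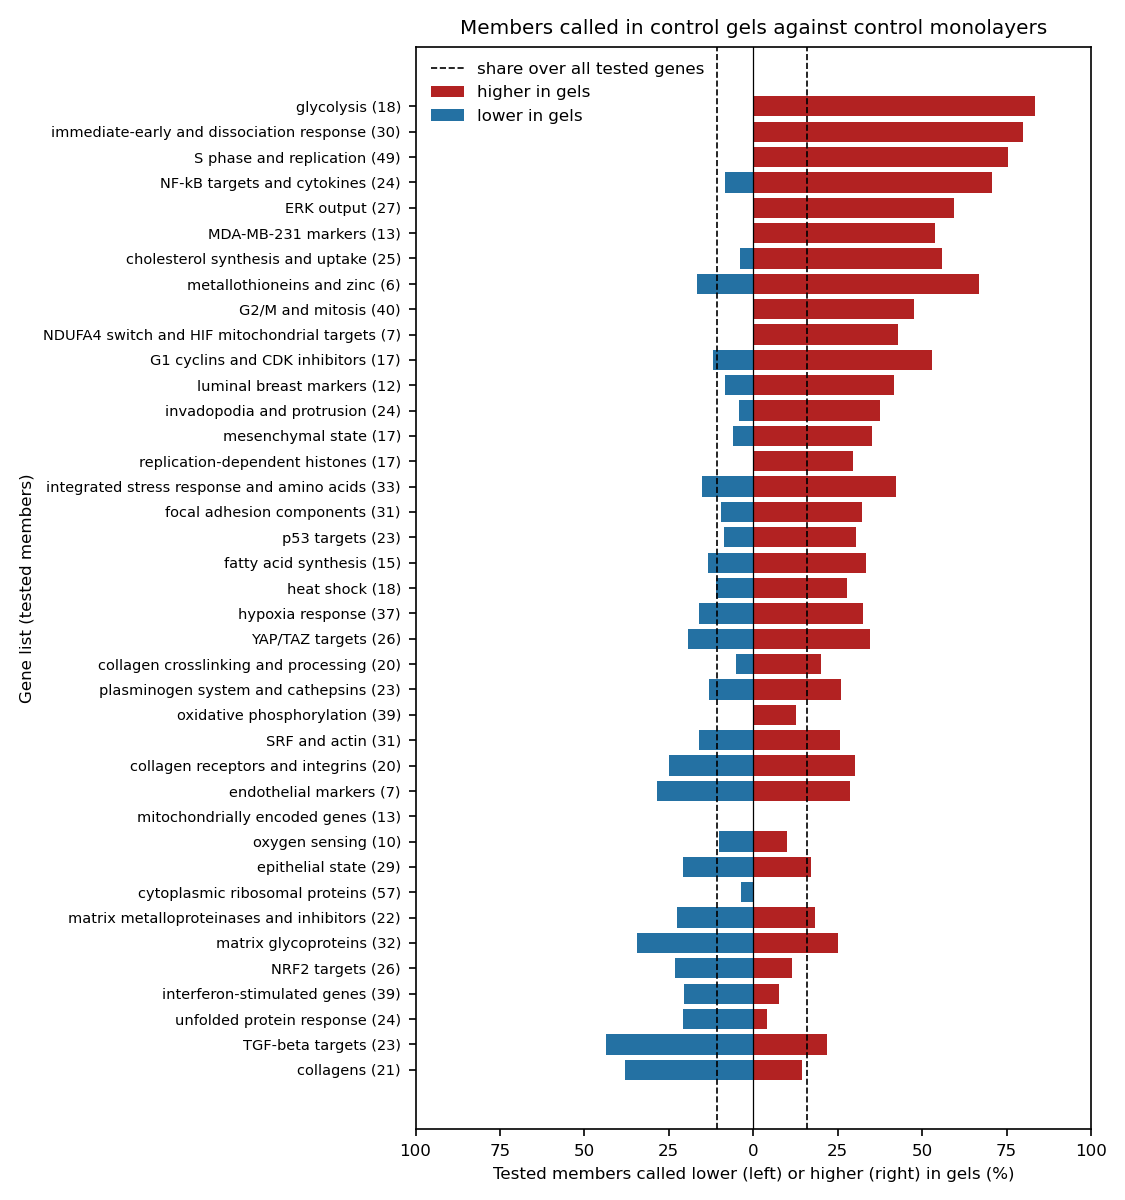
Bars give the percent of each list's tested members called lower (blue, to the left) and higher (red, to the right) in control gels, for lists with 5 or more tested members, and dashed lines give the shares over all tested genes, 16.0% higher and 10.7% lower. Glycolysis, immediate-early genes and S phase reach furthest to the right, and TGF-beta targets and collagens have the largest shares of members to the left.

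Genes of the matrix itself tended to be lower in gels. Of 21 tested collagens, 8 were lower and 3 higher, with a median of -0.21. These are 38.1% and 14.3%, against 10.7% lower and 16.0% higher among all tested genes. COL6A3, a chain of the microfibrillar collagen VI, was at 39.0 and 35.4 CPM in monolayers and 16.8 and 17.3 CPM in gels (-1.14 ± 0.085, adjusted p = 1.99e-12). COL8A1, a short-chain network collagen, went from 327 and 352 to 217 and 223 CPM (-0.62, adjusted p = 6.98e-12), and COL4A1, of the basement membrane, from 145 and 148 to 96.2 and 100 CPM (-0.58, adjusted p = 1.5e-10). These 3 fell without overlap between cultures. COL6A1, a partner chain of COL6A3, moved the other way, from 89.6 and 88.8 to 145 and 139 CPM (0.67, adjusted p = 7.6e-12), as did COL17A1, the hemidesmosomal collagen, from 14 and 14.1 to 26.8 and 27.7 CPM (0.96). COL7A1 at 121 and 93.9 against 95.3 and 108 CPM and COL12A1 overlapped between cultures. The number lower was 5 without monolayer library 1 and without gel library 1.

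Matrix glycoproteins were split, with 8 of 32 higher (25.0%) and 11 lower (34.4%), against 16.0% and 10.7% of all tested genes. CCN2, a matricellular protein induced by TGF-beta and YAP, was at 552 and 563 CPM in monolayers and 918 and 915 CPM in gels (0.72 ± 0.044, adjusted p = 8e-15). The laminin beta 3 chain, LAMB3, was higher (0.34), while the alpha 3 chain, LAMA3, was lower (-0.47). EFEMP1, an elastic fibre protein, fell from 26.8 and 29.2 to 14.7 and 14.1 CPM (-0.95, adjusted p = 9.22e-10), and FN1, fibronectin, from 662 and 581 to 466 and 501 CPM (-0.36, adjusted p = 3.86e-06). THBS1 and LAMC1 overlapped between cultures. The number higher was 5 without monolayer library 1, and the number lower 7 without gel library 1 and 7 without gel library 2. Of 20 crosslinking and processing genes, 4 were higher and 1 lower. The share higher was close to the 16.0% of all tested genes, and the share lower was below their 10.7%. The genes called higher were LOX and the hydroxylases P4HA1, P4HA2 and PLOD1, at 0.23 to 0.26. The transglutaminase TGM2 was called lower, at -0.21. P4HA1, P4HA2 and PLOD1 lost their calls without monolayer library 1, and P4HA2 also without gel library 1 and with library size alone. With library size alone, 6 of the 20 were lower.

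Receptors for matrix were likewise split, with 6 of 20 higher (30.0%) and 5 lower (25.0%), against 16.0% and 10.7% of all tested genes. ITGB4, the integrin chain of hemidesmosomes, was at 329 and 362 CPM in monolayers and 556 and 510 CPM in gels (0.63 ± 0.05, adjusted p = 1.15e-11), with its partner ITGA6 at 0.25. SDC4, a heparan sulfate coreceptor, went from 142 and 148 to 214 and 214 CPM (0.56, adjusted p = 6.45e-11). ITGB3, a chain of the vitronectin receptor, fell from 12.3 and 12.3 to 6.0 and 5.38 CPM (-1.11 ± 0.14, adjusted p = 2.06e-07). Of the collagen-binding chains, ITGA1 fell from 47.3 and 43.2 to 34.3 and 33.5 CPM (-0.42), ITGA2 was higher by 0.18, and the discoidin domain receptor DDR1 was lower by -0.25. ITGB1, which pairs with both alpha chains, was at 969 and 998 against 951 and 941 CPM and did not pass (95% interval of the log2 fold change -0.16 to 0.04). The number lower was 3 without gel library 1 and 8 with library size alone.

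Focal adhesion components had 10 of 31 members higher (32.3%) and 3 lower (9.68%), against 16.0% and 10.7% of all tested genes. The scaffold BCAR1 went from 149 and 155 to 226 and 221 CPM (0.56, adjusted p = 5.62e-11) and the kindlin FERMT1 from 35.3 and 34.3 to 52.6 and 49.98 CPM (0.56), while FHL1, a LIM-domain protein, fell from 33.4 and 37.0 to 22.9 and 22.7 CPM (-0.62). ACTN1 overlapped between cultures and CAV1 did not pass (adjusted p = 0.0753). The number higher was 5 without monolayer library 1 or gel library 1, 6 with DESeq2, 5 with upper-quartile factors and 4 with library size alone, beside 5 lower.

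Proteases moved singly. Of 22 metalloproteinases and inhibitors, 4 were higher and 5 lower. These are 18.2% and 22.7%, against 16.0% and 10.7% of all tested genes, so the share higher was close to that of all genes. ADAMTS1, a secreted protease that cuts versican, was at 110 and 110 CPM in monolayers and 252 and 271 CPM in gels (1.25 ± 0.051, adjusted p = 5.58e-20). MMP14, the membrane-anchored collagenase, went from 801 and 861 to 1073 and 1061 CPM (0.36, adjusted p = 2.42e-07), and MMP1, the secreted collagenase, from 6.0 and 5.34 to 9.94 and 10.8 CPM (0.86, adjusted p = 2.09e-05). The inhibitors RECK (-0.47) and TIMP3 (-0.14) were called lower, although TIMP3 lost its call without monolayer library 2 or either gel library, and TIMP2 did not pass (adjusted p = 0.0545). The 5 lower became 2 without monolayer library 2, 1 without gel library 1, 2 without gel library 2 and 8 with library size alone.

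In the plasminogen system and among cathepsins, 6 of 23 were higher and 3 lower. These are 26.1% and 13.0%, against 16.0% and 10.7% of all tested genes. PLAUR, the urokinase receptor, went from 97.6 and 109 to 157 and 154 CPM (0.59 ± 0.055, adjusted p = 2.74e-10), and CTSD, a lysosomal aspartic protease, from 323 and 333 to 464 and 440 CPM (0.46, adjusted p = 9.85e-10). The cystatins CST1, at 127 and 116 against 79.7 and 68.2 CPM (-0.72), and CST4, at 72.0 and 75.3 against 52.6 and 48.7 CPM (-0.54), fell, and as near-identical copies they may share reads. PLAU, urokinase itself, at 443 and 451 against 437 and 442 CPM, did not pass (adjusted p = 0.726), nor did PLAT. The number lower was 5 with library size alone and with length and GC offsets.

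**Figure D5:**
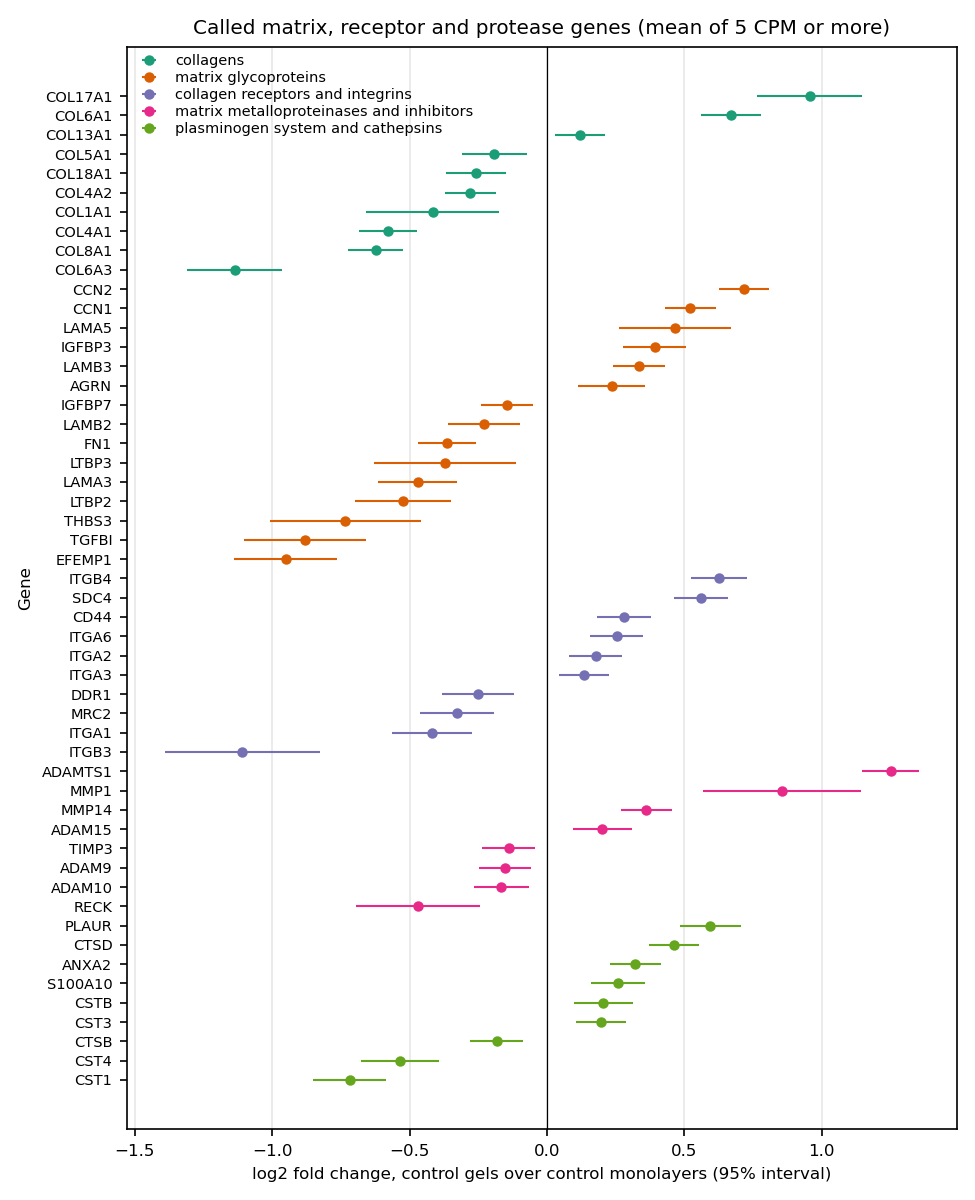
Log2 fold changes of control gels over control monolayers (x axis) with 95% intervals are drawn for called genes of 5 lists with a mean of at least 5 CPM, 1 gene per row, coloured by list. ADAMTS1 and COL17A1 lie furthest to the right, and COL6A3 and ITGB3 furthest to the left.

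Genes of protrusion and invadopodia, the actin-rich structures that degrade matrix, had 9 of 24 members higher (37.5%) and 1 lower (4.17%). Over all tested genes the shares were 16.0% and 10.7%. RHOB, a short-lived GTPase, went from 22.6 and 23.4 to 38.4 and 38.1 CPM (0.74, adjusted p = 2.68e-09), FSCN1, which bundles actin in filopodia, from 91.9 and 91.5 to 138 and 126 CPM (0.53, adjusted p = 1.23e-08), and CDC42EP3, a CDC42 effector, from 223 and 232 to 305 and 291 CPM (0.39). RHOB is a member of the immediate-early list too. ACTR2 and RHOA overlapped between cultures. The number higher was 5 without monolayer library 1, without either gel library and with library size alone, and with library size alone 4 were lower. SRF and actin genes had 8 of 31 higher (25.8%) and 5 lower (16.1%). The filamins FLNC (0.44) and FLNA (0.34) rose, and the tropomyosin TPM1 fell from 94.3 and 87.5 to 71.5 and 67.9 CPM (-0.39), as did TAGLN (-0.80). The 8 became 13 without monolayer library 2 and 5 with library size alone.

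Targets of YAP and TAZ, coactivators that respond to stretch and stiffness, had 9 of 26 higher (34.6%) and 5 lower (19.2%), with a median of 0.09. Over all tested genes the shares were 16.0% and 10.7%. CCN1, a matricellular protein, was at 1100 and 1119 CPM in monolayers and 1551 and 1638 CPM in gels (0.52 ± 0.046, adjusted p = 9.84e-11), AMOTL2, an angiomotin, went from 103 and 112 to 178 and 166 CPM (0.69), and EDN1, endothelin 1, from 7.73 and 7.20 to 16.6 and 19.0 CPM (1.24). ANKRD1, often read as a YAP target, fell from 351 and 342 to 254 and 259 CPM (-0.44 ± 0.046, adjusted p = 4.62e-09). AXL and NT5E did not pass. CCN1 is a member of the immediate-early list too.

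TGF-beta targets leaned lower by count, with 10 of 23 lower (43.5%), 5 higher (21.7%) and a median of -0.20. Over all tested genes the shares were 10.7% lower and 16.0% higher. The summed level of the list was higher in gels, at 2207 and 2199 CPM against 1880 and 1950 CPM in monolayers. TGFB2, the ligand, fell from 58.0 and 52.2 to 26.2 and 26.2 CPM (-1.08 ± 0.073, adjusted p = 1.37e-13), TGFBI, a secreted adhesion protein, from 17.1 and 19.9 to 10.9 and 8.89 CPM (-0.88), and PMEPA1, a feedback inhibitor, from 39.7 and 35.7 to 22.6 and 23.4 CPM (-0.72). Higher members included ID3, a dominant-negative helix-loop-helix factor and also a BMP target, from 4.91 and 5.09 to 14.6 and 14.9 CPM (1.57 ± 0.13, adjusted p = 1.52e-11). CCN2, given above with the matrix glycoproteins, had the smallest adjusted p on this list and was higher (0.72). JUNB, called higher on this list, is a member of the immediate-early list too. TGFB1 did not pass. The 5 higher became 3 without monolayer library 1, without gel library 1, and with DESeq2, no filter on low counts, upper-quartile factors or library size alone.

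Cell state markers changed a little in each direction. Of 17 mesenchymal genes 6 were higher (35.3%) and 1, FN1, lower (5.88%), against 16.0% and 10.7% of all tested genes. CDH11, a mesenchymal cadherin, went from 123 and 135 to 175 and 171 CPM (0.43) and CD44 from 353 and 384 to 449 and 446 CPM (0.28). Of 29 epithelial genes 5 were higher and 6 lower: KRT7 fell from 172 and 159 to 117 and 118 CPM (-0.50, adjusted p = 3.64e-09) and CLDN7 from 87.1 and 86.8 to 65.9 and 64.3 CPM (-0.42), while the plakophilin PKP3 rose from 20.5 and 18.7 to 31.3 and 30.8 CPM (0.66). The 5 and the 6 are 17.2% and 20.7%, against 16.0% and 10.7% of all tested genes. The 5 higher became 2 without monolayer library 1, 3 without gel library 1 and 3 with DESeq2, upper-quartile factors or library size alone. Of 12 luminal markers 5 were higher, with AGR2, a disulfide isomerase, from 10.7 and 11.2 to 22.1 and 21.0 CPM (0.98), and 1 lower, and the 5 became 3 without monolayer library 1. The luminal shares were 41.7% higher and 8.33% lower. FLT1, a VEGF receptor on the endothelial list, fell from 3.54 and 3.54 CPM to 0.480 and 0.494 CPM, raw counts of 88 and 57 against 10 and 9 (-2.85 ± 0.34, adjusted p = 6.13e-08).

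Stress programmes other than the immediate-early genes showed no common direction. Over all tested genes, 16.0% were higher and 10.7% lower. The shares were 42.4% and 15.2% for the integrated stress response, 4.17% and 20.8% for the unfolded protein response and 27.8% and 11.1% for heat shock. In the integrated stress response, 14 of 33 were higher and 5 lower: ATF5 (0.79), ATF4 (0.31) and the amino acid transporters SLC7A5 (0.36) and SLC1A5 (0.34) rose, while DDIT3 was lower (-0.37) and GARS1 and AARS1 did not pass. ATF3, given above with the immediate-early genes, is on this list too and was called higher. The split was 9 and 2 with DESeq2, and 9 were higher without monolayer library 1 and with library size alone, beside 9 lower in the latter and with length and GC offsets. Leaving out gel library 1 gave 9 higher and 1 lower, monolayer library 2 gave 3 lower and gel library 2 gave 2 lower. Unfolded protein response genes had 1 of 24 higher and 5 lower, HSP90B1 from 1063 and 1072 to 945 and 962 CPM (-0.16) among them, with 1 lower without gel library 1 and 8 with library size alone. Heat shock genes had 5 of 18 higher and 2 lower, with BAG3 at 0.31 and HSPH1 at -0.21, and the 5 became 2 without monolayer library 1, 1 without gel library 1, 2 with upper-quartile factors and 1 with library size alone. The number lower was 5 with library size alone and with length and GC offsets, and HSPH1 lost its call without gel library 1.

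Interferon-stimulated genes had 3 of 39 higher and 8 lower, the latter 5 without monolayer library 2, 4 without gel library 2 and 13 with library size alone. Over all tested genes, 16.0% were higher and 10.7% lower. The shares were 7.69% and 20.5% on this list, 30.4% and 8.7% for the p53 targets and 11.5% and 23.1% for the NRF2 targets below. The transcription factor IRF1 rose from 24.3 and 23.3 to 36.7 and 31.2 CPM (0.51), and PARP14, an ADP-ribosyltransferase, fell from 30.8 and 30.5 to 21.9 and 21.3 CPM (-0.50). Targets of p53, which is mutated in this line, had 7 of 23 higher and 2 lower: PLK2 rose from 132 and 128 to 218 and 221 CPM (0.75, adjusted p = 2.91e-14), and GDF15, a stress-induced cytokine, fell from 10.1 and 11 to 5.23 and 4.39 CPM (-1.12). The 7 became 4 without monolayer library 2, without gel library 1, with DESeq2 and with library size alone, and 5 were lower without monolayer library 1. NRF2 targets had 3 of 26 higher and 6 lower, AKR1B1 from 196 and 175 to 133 and 130 CPM (-0.50) among them, and 2 lower without gel library 1 or gel library 2. Cytoplasmic ribosomal proteins were close to even, with 2 of 57 lower, none higher and a median of -0.00, although 19 were lower with library size alone, 16 with length and GC offsets and 5 with upper-quartile factors, and 7 were higher without monolayer library 2 and 5 with limma-voom.

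The largest falls among genes with a mean of 5 CPM or more were smaller than the largest rises, and only 3 of the 12 were on any list. TNFSF15, a TNF-family cytokine that inhibits endothelial growth (chr9:114784635-114806039), was at 48.5 and 40.5 CPM in monolayers and 12.4 and 13.3 CPM in gels (-1.81 ± 0.10, adjusted p = 5.22e-14). CYP24A1, the vitamin D 24-hydroxylase, fell from 32.5 and 34.1 to 12.7 and 14.4 CPM (-1.30, adjusted p = 3.78e-13), and TFEB, a regulator of lysosomal genes, from 6.12 and 8.44 to 3.17 and 2.63 CPM (-1.29, adjusted p = 3.46e-06). The falls included 3 long noncoding RNAs, PURPL (-1.24), TMEM161B-DT (-1.17) and MIR34AHG (-1.16), of which PURPL and MIR34AHG are known p53 targets. The teneurin TENM2 (-1.10), the matrix-associated ADAMTSL4 (-1.10) and NOL4L (-1.09) completed the group with COL6A3, GDF15 and ITGB3. Genes whose values overlapped between cultures were left out when this group was chosen. Among the largest rises, MIR23AHG, the host RNA of the miR-23a cluster, went from 67.9 and 53.7 to 316 and 373 CPM (2.49, adjusted p = 0.00281).

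In CPM, which grow with transcript length as well as with abundance, the largest rises were those of VIM, PLEC, PKM, FLNA, FOS and GAPDH. PLEC, the cytolinker plectin that anchors intermediate filaments to hemidesmosomes, was at 1710 and 1837 CPM in monolayers and 2802 and 2854 CPM in gels (0.67 ± 0.055, adjusted p = 1.74e-09). The largest falls were those of ERRFI1, TXNIP, TMSB4X, TIMP3, FN1 and COL8A1. TXNIP, an inhibitor of glucose uptake, went from 357 and 417 to 217 and 210 CPM (-0.86 ± 0.055, adjusted p = 3.45e-12), and ERRFI1, a feedback inhibitor of the EGF receptor, from 892 and 1000 to 781 and 763 CPM (-0.29). Genes whose values overlapped between cultures were left out of these rankings in CPM too. TMSB4X lost its call without monolayer library 2 or gel library 1.

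The same step from monolayer to gel was measured in the ETV1, ETV4 and ETV5 knockout cells, which share no library with the control comparison. There 5915 genes were called (38.0%), 3122 higher (20.1%) and 2793 lower (17.9%). Of the 2486 genes higher in control gels, 1614 (64.9%) were also called higher in knockout gels and 78 lower. Of the 1672 lower in control gels, 1053 (63.0%) were also lower and 25 higher. Of the 59 genes that rose by more than 1.5-fold in control gels, 55 (93.2%) rose in knockout gels and 1 was lower, and of the 54 that fell by more than 1.5-fold, 52 (96.3%) fell and none was higher. The knockout gels were harvested in the same way as the control gels.

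A test of the difference itself, the gel effect in control cells minus that in knockout cells, called 1028 genes (6.6%), 613 with a higher value in control cells (3.94%) and 415 with a lower one (2.67%). The number was 662 without control monolayer library 1, 413 without control gel library 1, 627 without control gel library 2, 623 without knockout monolayer library 1, 623 without knockout gel library 2 and 678 with DESeq2. Among immediate-early genes, 23 of 30 rose in knockout gels too, and 4 members had a higher and 5 a lower gel effect in control cells. FOS rose by 6.48 on the log2 scale in control and 6.09 in knockout cells (difference 0.39, adjusted p = 0.0219), whereas DUSP1 rose by 2.85 and 3.52 (difference -0.67, adjusted p = 1.29e-07). The S phase genes had 46 of 49 higher in knockout gels, and 4 members passed the test of the difference, each with a lower gel effect in control cells.

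The glycolysis and hypoxia lists held many genes that passed this test. Of 18 glycolysis genes, 15 had a higher gel effect in control than in knockout cells, where 1 was higher and 11 lower in gels. Over all tested genes, 3.94% had a higher gel effect in control cells and 2.67% a lower one. LDHA changed by 0.34 in control and -0.40 in knockout cells (difference 0.75, adjusted p = 1.01e-09) and PGK1 by 0.41 and -0.30 (0.71, adjusted p = 5.77e-09). For 25 of 37 hypoxia response genes the gel effect was higher in control cells and for 1 it was lower, and in knockout gels 29 were lower and 2 higher. BNIP3 changed by 0.51 and -0.58 (difference 1.09, adjusted p = 9.25e-13), and CA9, the carbonic anhydrase used as a hypoxia marker, by 0.30 and -2.43 (2.73, adjusted p = 1.15e-10). CA9 itself was at 31.2 and 40.0 CPM in control monolayers and 45.6 and 40.6 CPM in control gels, close to overlapping.

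NF-kB targets and cytokines showed 12 of 24 members with a higher gel effect in control cells and none lower, against 3.94% and 2.67% of all tested genes. In knockout gels 9 were higher and 9 lower. CXCL8 changed by 1.20 in control and -0.47 in knockout cells (difference 1.68, adjusted p = 1.01e-09), while CXCL2 changed by 1.96 and 2.13, with no call of a difference (adjusted p = 0.806). Of 25 cholesterol genes 13 had a higher gel effect in control cells, HMGCS1 among them at 0.56 against -0.02 (0.58, adjusted p = 3.72e-06). The proteases MMP14, at 0.36 against -0.34 (difference 0.70, adjusted p = 1.97e-09), and PLAU, at -0.02 against -0.63 (0.61, adjusted p = 1.7e-08), showed the same order. Targets of YAP and TAZ had 8 of 26 members with a lower gel effect in control cells and 2 with a higher one, CCN1 at 0.52 against 1.25 and ANKRD1 at -0.44 against 0.09.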

How the data were processed

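Messenger RNA was sequenced from stranded poly(A) libraries. The deposited file gives unnormalised counts for each gene symbol. The submitters' processing notes name FastQC 0.11.9, STAR 2.7.9a, featureCounts, R 4.1.1 and the hg38 build. The annotation and strand setting are not given in these sources, so overlapping, antisense and near-identical genes are uncertain.

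Genes passing filterByExpr (minimum count 10; 15568 of 61228, with 99.89% of counts) were scaled by TMM and fitted with edgeR 4.0.16 in R 4.3.3 as group means over all 8 libraries, using the robust quasi-likelihood F-test, Benjamini-Hochberg adjustment over all tested genes and a threshold of 0.05; glmTreat tested against 1.5-fold. CPM use the TMM factors, a value in brackets after a gene is its log2 fold change, and ± is its SE. On counts simulated with 1 spread common to all genes, the test called 100 of 100 genes changed by 1 log2 unit. Only genes with a mean above 5 CPM were changed. Smaller changes, and genes with a wider spread of their own, were not simulated, so this does not bear on most of the calls. The biological coefficient of variation was 4.03%. The labels do not say that replicate numbers pair libraries, so the main fit had no block. Differences between replicates 1 and 2 in control monolayers and in control gels correlated at r = -0.036 across genes. That value cannot show whether libraries were paired.

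The comparison, the 42 gene lists and their members were chosen with earlier results of these data known. Named were ETV1, ETV4 and ETV5, the 12 largest called rises and falls among genes with a symbol, a mean of 5 CPM or more and no overlap between cultures, the 6 largest in CPM, up to 4 called and 2 uncalled members per list, and 5 interaction genes per sign; further list members were chosen after their values were seen. The results of some genes that this rule or a list named are not reported here or drawn by name, though counts over lists include them. Alternatives were other scalings, filters and tools (DESeq2 1.42.0, limma-voom in limma 3.58.1), the 4 control libraries alone, a replicate block, leaving out each library and length and GC offsets. Promoters came from RefSeq. With 1 library of a group left out, the other is assumed to vary like the other groups.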

Additional observations from a re-analysis of the deposited data

Results flagged for a closer look

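The step from monolayer to gel differed between control and knockout cells, by the interaction test in edgeR, for 19 of the genes named for their size or for this test. The value given is the log2 fold change in control cells minus that in knockout cells, and the cause was not tested.

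A higher gel effect in control cells was found for several genes linked to hypoxia and glycolysis: CA9 (2.73), a carbonic anhydrase, BNIP3 (1.09), a mitophagy receptor, PKM (0.33), the pyruvate kinase, and GAPDH (0.31, adjusted p = 0.00214). The log2 fold changes of PKM and GAPDH were 0.38 and 0.28 in control cells and 0.05 and -0.03 in knockout cells. CST1, a cystatin (1.89), PMEPA1, a TGF-beta feedback inhibitor (1.21), COL6A3, a collagen VI chain (0.76), and TNFSF15, a TNF-family cytokine (0.81), fell in both and by more in knockout cells. PLAT, the tissue plasminogen activator (0.91), had a log2 fold change of 0.06 in control cells and -0.84 in knockout cells. CSF2 (1.10, adjusted p = 0.0145), EGR1 (0.33, adjusted p = 0.00653) and FOS (0.39, adjusted p = 0.0219) rose in both and by more in control cells.

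A lower gel effect in control cells was found for DUSP1 (-0.67) and ATF3 (-0.78, adjusted p = 0.00571), which rose in both, and for the matricellular CCN1 (-0.72) and the filamin FLNC (-0.70), likewise higher in both. MKI67, a proliferation marker (-0.63), was at 463 and 417 CPM in control monolayers and 457 and 486 CPM in control gels, and changed by 0.72 on the log2 scale in knockout cells. ANKRD1 (-0.53) fell by 0.44 in control cells and had a log2 fold change of 0.09 in knockout cells. COL8A1 (-0.40) fell by 0.62 in control cells and by 0.22 in knockout cells.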

How the results depend on the processing

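Library totals of 15824504 counts and more limit calls mainly for genes of a few CPM, and 2 libraries per group limit all of them. DESeq2 called 2431 genes between control gels and monolayers, 44 past 1.5-fold and 678 with an interaction, and limma-voom 68 past 1.5-fold. Leaving out each library in turn gave 2144 to 3597 genes, 63 to 96 past 1.5-fold and 413 to 1334 with an interaction, from fewer samples. The replicate block gave 4435 genes (2628 higher, 1807 lower), 122 past 1.5-fold and 1203 with an interaction. The 4 control libraries alone gave 2194 higher and 2013 lower genes, DESeq2-type size factors 2232 and 1831, and length and GC offsets 2249 and 2116, a share of 51.5% higher. The log2 fold change had a Spearman correlation of -0.202 with transcript length and 0.122 with GC content across 11174 genes, which are not independent replicates. Of 161 named genes called for the gel effect, 132 were called in every alternative that tested them, and none of the 235 named turned direction with a call. The medians of the SRF and actin, crosslinking, fatty acid, heat shock, integrated stress response, invadopodia, mesenchymal, oxidative phosphorylation, p53, plasminogen and unfolded protein response lists changed sign under at least 1 other scaling, mostly library size alone.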
